A study of Mus musculus with 6 samples.

Results

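The genes described here are the myoblast fusion and recognition genes *Mymk*, *Mymx*, *Cdh15*, *Cdon*, *Boc*, *Neo1*, *Jam2*, *Jam3*, *Dock1* and *Nphs1*. Their rows were found by gene symbol, and they make up 10 of the 55421 gene identifiers in the expression table. Gene expression was measured by RNA-seq of total RNA in 6 libraries of C2C12-derived cells, C2C12 being a mouse myoblast line that withdraws from the cell cycle and fuses into multinucleated myotubes when serum is lowered. All libraries came from cells carrying a plasmid in which 200 CTG repeats follow a GFP gene, a cell model of myotonic dystrophy type 1 (DM1), and all were collected on day 4 of differentiation. The control group (n = 3) was the CUG200-ctrl line, DM1 myoblasts stably transfected with the empty vector. The miR-322/-503 group (n = 3) was the CUG200-m line, DM1 myoblasts stably transfected with a plasmid that expresses miR-322 and miR-503. Each group was thus a single drug-selected line, and whether a line was a clone or a pool is not given in the sources used here. The replicates were labelled as separate samples of a line, so the p-values below measure the spread between samples of a line, and an effect of the microRNAs cannot be told apart from a difference between the lines.

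Myoblasts first recognize and adhere to each other through cadherins, immunoglobulin superfamily proteins and junctional adhesion molecules, and these contacts signal to the muscle transcription program and to the actin cytoskeleton. The muscle membrane proteins myomaker, encoded by *Mymk*, and myomixer, encoded by *Mymx*, then drive the merging of the membranes, myomaker in the mixing of the outer leaflets and myomixer in the opening of the pore. Both are switched on by the myogenic transcription factors during differentiation and are largely silent in resting adult muscle.

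The overexpressed microRNAs are shown first, since bases 2 to 8 of a microRNA, its seed, pair with messenger RNAs. The mature sequences were taken from RefSeq (GRCm38.p6), where they lie on the minus strand of the X chromosome, miR-322-5p at chrX:53054306-53054327 and miR-503-5p at chrX:53054027-53054049. Capitals mark the seed.
mmu-miR-322-5p: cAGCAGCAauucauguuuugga
mmu-miR-503-5p: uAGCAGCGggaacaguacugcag
The seeds of miR-322-5p and miR-503-5p share 6 of their 7 bases. The heptamer that pairs with the miR-322-5p seed, TGCTGCT on the transcript strand, was present in the longest annotated 3′UTR of *Mymk*, *Cdon* and *Jam2*, 3 of the 10 genes, and in 27.0% of the 13487 genes with a 3′UTR of at least 50 bases. The heptamer for miR-503-5p, CGCTGCT, was in none of the 10 and in 5.72% of all 3′UTRs. The shared hexamer GCTGCT, which lies within both heptamers, was in *Mymk*, *Cdon*, *Neo1*, *Jam2* and *Jam3*, 5 of the 10 genes, and in 49.3% of all 3′UTRs. For *Nphs1* the 3′UTR searched was the 534 bases of Nphs1-205, which is annotated as a nonsense-mediated decay transcript and not as protein-coding. The 3 heptamer matches are printed with the heptamer in capitals, to be read beside the levels of these genes. The coordinates are GRCm38, and the letters follow the transcript strand: *Mymk* on the minus strand at chr2:27062014-27062038, *Cdon* on the plus strand at chr9:35507621-35507645 and *Jam2* on the plus strand at chr16:84825100-84825124.
Mymk: ctgcattctgctgagTGCTGCTtag
Cdon: tatattaaaagagaaTGCTGCTttc
Jam2: tccctcccttccaccTGCTGCTgtg
The *Mymk* match began at base 165 of a 552-base 3′UTR, the *Jam2* match at base 2296 of 3109, and the *Cdon* match at base 3416 of 3432, near the annotated end. Of these 3 genes, *Jam2* was higher in the miR-322/-503 group, and *Mymk* and *Cdon* did not pass the test. A match to a seed is a match of letters and was not tested as a binding site.

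Total estimated counts per library lay between 78219596 and 86470394 for the control, and between 73532084 and 92157388 for miR-322/-503, and about 4 estimated counts stood for 1 read pair. All 10 genes were detected in every library, with 487 to 34510 estimated counts, and all 10 passed the filter on low counts. The hairpin genes of the overexpressed microRNAs had few counts, *Mir322* 1 to 7 (control) and 0 to 17 (miR-322/-503), and *Mir503* 1 to 2 and 4 to 6, and these do not measure the mature microRNAs. The myotube markers were present in every library, with a summed level of 1673 to 1898 TPM (transcript abundance per length, scaled to the same sum in each library) in control libraries, against 2413 to 2524 TPM with miR-322/-503. Of these 9 markers, *Myod1*, *Mef2c*, *Des*, *Ttn*, *Ckm* and *Tnnt3* were higher in the miR-322/-503 group, *Myog* was lower, and *Actc1* and *Myh3* did not pass the test. The largest rises in TPM were those of *Des* (783 to 1185) and *Tnnt3* (346 to 687), while *Myog* fell from 258 to 153 TPM. All 5 markers of proliferating cells (*Mki67*, *Top2a*, *Ccnb1*, *Cdk1* and *Birc5*) were lower, with a summed TPM of 336 to 344 in control libraries, against 203 to 215 with miR-322/-503. In bulk RNA, a change in the share of differentiated or dividing cells and a change in the RNA per cell cannot be told apart, and the part of either in the results below was not tested.

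With miR-322/-503, 3 of the 10 genes were higher (*Mymx*, *Cdh15* and *Jam2*), 2 were lower (*Boc* and *Jam3*), and 5 did not pass the test (*Mymk*, *Cdon*, *Neo1*, *Dock1* and *Nphs1*). Calls rest on the quasi-likelihood test of edgeR, with p-values adjusted by the Benjamini-Hochberg method over 18140 genes and a threshold of 0.05. Of all genes tested, 13.2% were called higher and 15.5% lower, so 3 and 2 of 10 genes are near what these shares give. With the added limit of an absolute log2 fold change above 1, no gene of the 10 was called higher, against 4.59% of all genes, and only *Boc* was called lower, against 5.29%. The median log2 fold change of the 10 genes was -0.12, and that of all genes tested was -0.01. In 7 of the 10 genes the control and miR-322/-503 libraries did not overlap, where the share of all tested genes was 45.1%. Levels below are CPM, the estimated counts scaled to a common library size with edgeR's TMM factors, with mean ± SD.

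**Figure D1:**
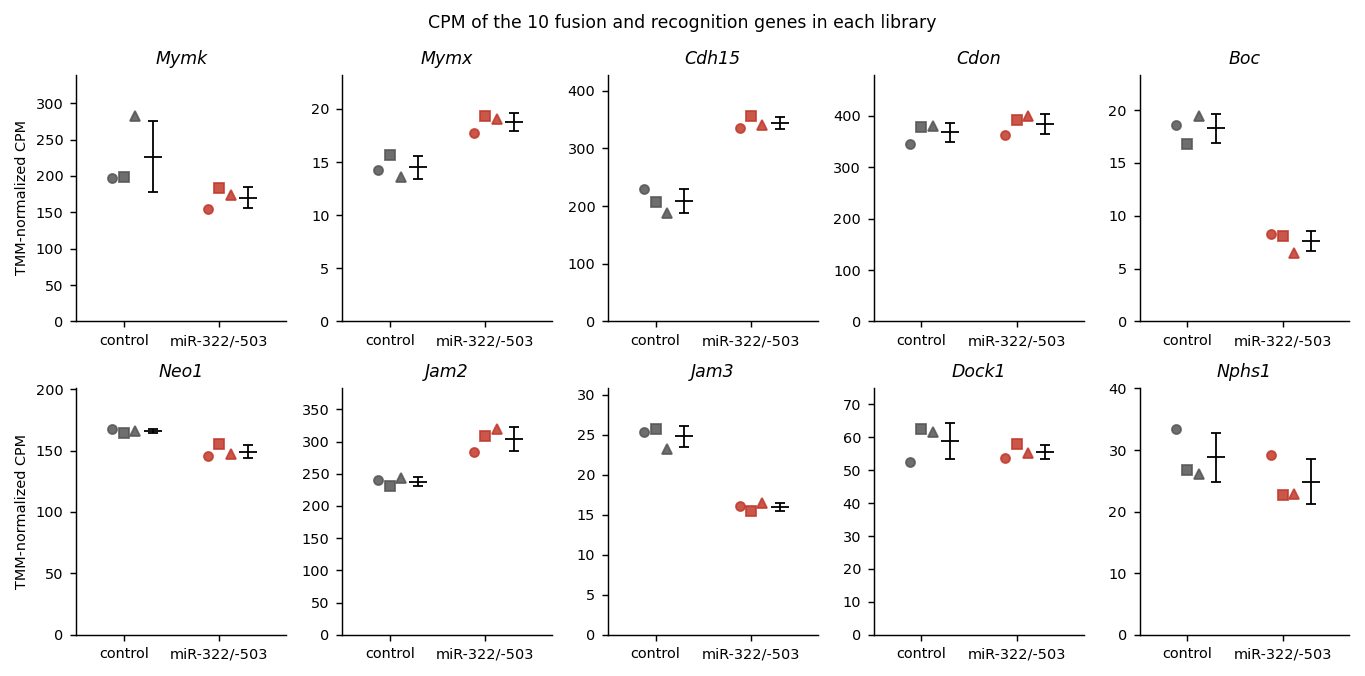
TMM-normalized CPM of each gene in the 3 control (grey) and 3 miR-322/-503 (red) libraries, with circles, squares and triangles for replicates 1, 2 and 3 and the mean ± SD beside the points; each vertical axis starts at 0. The groups do not overlap for *Mymk*, *Mymx*, *Cdh15*, *Boc*, *Neo1*, *Jam2* and *Jam3*, and they overlap for *Cdon*, *Dock1* and *Nphs1*.

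The genes of the fusion proteins themselves were read first. *Mymk* (ENSMUSG00000009214, chr2:27061636-27072179, minus strand) was at 198, 198 and 283 CPM in control replicates 1 to 3 and at 154, 183 and 173 CPM in miR-322/-503 replicates 1 to 3. Every miR-322/-503 library was below every control library, but control replicate 3 stood well above the other control libraries. The mean was 226 ± 49.0 CPM in the control and 170 ± 14.7 CPM in the miR-322/-503 group, a log2 fold change of -0.41 (SE 0.15, 95% interval -0.76 to -0.06) that missed the threshold (edgeR, adjusted p = 0.0796). DESeq2 called *Mymk* lower at nearly the same log2 fold change of -0.40 (adjusted p = 0.0209). Without control replicate 3 the log2 fold change was -0.22 (edgeR, adjusted p = 0.119).

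*Mymx* (ENSMUSG00000079471, chr17:45600971-45602102, minus strand) went the other way. Its level was 14.3, 15.7 and 13.6 CPM in the control libraries and 17.8, 19.4 and 19.1 CPM in the miR-322/-503 libraries, with no overlap. *Mymx* rose 1.29-fold, from 14.5 ± 1.07 to 18.7 ± 0.85 CPM (log2 fold change 0.37, SE 0.09, 95% interval 0.16 to 0.58, edgeR, adjusted p = 0.0196). This call was lost in 4 of the 6 fits that left out a library: without control replicate 1 (adjusted p = 0.0578), control replicate 3 (0.0612), miR-322/-503 replicate 2 (0.0661) or miR-322/-503 replicate 3 (0.0618), while the log2 fold change stayed between 0.32 and 0.43.

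The balance of the partners was then compared within each library by the ratio of their TPM values, which are per length. *Mymx* stood at 0.147, 0.162 and 0.106 of the *Mymk* level in the control libraries and at 0.242, 0.218 and 0.228 in the miR-322/-503 libraries. Every miR-322/-503 library had the higher ratio, by 1.68-fold on the mean log2 scale. The exact two-sided permutation test gave p = 0.1, the smallest value that 3 against 3 libraries allow, so no ratio of this kind could pass 0.05 (p adjusted over the 4 ratios compared, 0.1).

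Among the adhesion genes, *Cdh15* encodes M-cadherin, the cadherin of myoblasts and satellite cells. *Cdh15* (ENSMUSG00000031962, chr8:122847966-122867397, plus strand) was at 229, 206 and 188 CPM in the control libraries and at 336, 357 and 340 CPM in the miR-322/-503 libraries. The lowest miR-322/-503 library lay far above the highest control library. *Cdh15* rose from 208 ± 20.8 to 344 ± 10.97 CPM, 1.65-fold (log2 fold change 0.73, SE 0.08, 95% interval 0.53 to 0.92, edgeR, adjusted p = 0.000566), the highest fold change of the 10 genes. *Cdh2*, which encodes N-cadherin, the other main cadherin of myoblasts, fell over the same libraries from 281 ± 14.9 to 143 ± 10.6 CPM (log2 fold change -0.98, SE 0.08, edgeR, adjusted p = 8.87e-05). The ratio of *Cdh15* to *Cdh2* in TPM was 1.30, 1.06 and 0.970 in the control libraries and 3.80, 3.48 and 3.52 in the miR-322/-503 libraries. In the control the cadherins were thus near parity, and in the miR-322/-503 group *Cdh15* was the higher in every library, with a 3.27-fold higher ratio (exact two-sided permutation test, p = 0.1, the smallest possible).

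*Cdon*, *Boc* and *Neo1* encode immunoglobulin superfamily receptors that sit in a complex with the cadherins at myoblast contacts; neogenin, the *Neo1* product, is a receptor for netrins and repulsive guidance molecules, and Cdon and Boc also bind Hedgehog ligands. *Boc* (ENSMUSG00000022687, chr16:44485049-44558897, minus strand) was at 18.6, 16.8 and 19.5 CPM in the control libraries and at 8.26, 8.09 and 6.48 CPM in the miR-322/-503 libraries. All miR-322/-503 libraries were well under every control library. *Boc* fell from 18.3 ± 1.37 to 7.61 ± 0.985 CPM, to 0.417 of the control level (log2 fold change -1.26, SE 0.12, 95% interval -1.55 to -0.98, edgeR, adjusted p = 0.000266), which was the largest change of the 10 genes.

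Its close relative *Cdon* (ENSMUSG00000038119, chr9:35421128-35507652, plus strand) was at 346, 377 and 380 CPM in the control libraries and at 362, 391 and 400 CPM in the miR-322/-503 libraries, and the groups overlapped. The log2 fold change was 0.06 (SE 0.07, 95% interval -0.09 to 0.22, edgeR, adjusted p = 0.535). The ratio of *Cdon* to *Boc* in TPM was 11.6, 13.8 and 11.97 in control replicates 1 to 3, against 26.6, 29.2 and 36.9 in miR-322/-503 replicates 1 to 3, 2.47-fold higher with no overlap (exact two-sided permutation test, p = 0.1, the smallest possible). *Neo1* (ENSMUSG00000032340, chr9:58874687-59036441, minus strand) was at 168, 164 and 166 CPM in the control libraries and at 145, 156 and 147 CPM in the miR-322/-503 libraries. The groups did not overlap, but the means, 166 ± 1.80 and 149 ± 5.58 CPM, lay close together, with a log2 fold change of -0.15 (SE 0.05, 95% interval -0.28 to -0.03, edgeR, adjusted p = 0.0758) that missed the threshold. *Cdon* and *Neo1* lie on chromosome 9, where most genes were lower (below). With an offset for this the direction of *Neo1* turned (0.10), and the ratio of *Cdon* to *Boc* was not scaled for it.

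*Jam2* and *Jam3* encode junctional adhesion molecules B and C, which bind each other across the contact between apposed cells. *Jam2* (ENSMUSG00000053062, chr16:84774123-84825928, plus strand) was at 240, 231 and 243 CPM in the control libraries and at 283, 309 and 319 CPM in the miR-322/-503 libraries. *Jam3* (ENSMUSG00000031990, chr9:27097384-27155421, minus strand) was at 25.4, 25.7 and 23.3 CPM in the control libraries and at 16.1, 15.5 and 16.5 CPM in the miR-322/-503 libraries. Neither gene overlapped between groups, and the partners moved in opposite directions. *Jam2* rose from 238 ± 6.34 to 304 ± 18.8 CPM (log2 fold change 0.35, SE 0.07, 95% interval 0.20 to 0.51, edgeR, adjusted p = 0.00598). *Jam3* fell from 24.8 ± 1.35 to 16.0 ± 0.507 CPM (log2 fold change -0.63, SE 0.08, 95% interval -0.82 to -0.44, edgeR, adjusted p = 0.001). *Jam2* was already the more abundant partner, with a ratio to *Jam3* in TPM of 4.39, 4.17 and 4.83 in the control libraries. This ratio was 7.97, 9.07 and 9.02 in the miR-322/-503 libraries, 1.95-fold higher with no overlap (exact two-sided permutation test, p = 0.1, the smallest possible). *Jam3* lies on chromosome 9, where most genes were lower (below), and the ratio was not scaled for this. *Gm48796*, on the opposite strand within the span of *Jam3*, had 113 to 257 estimated counts per library (log2 fold change -0.59, edgeR, adjusted p = 0.158), and whether the counting used strand is not given in the sources used here.

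**Figure D2:**
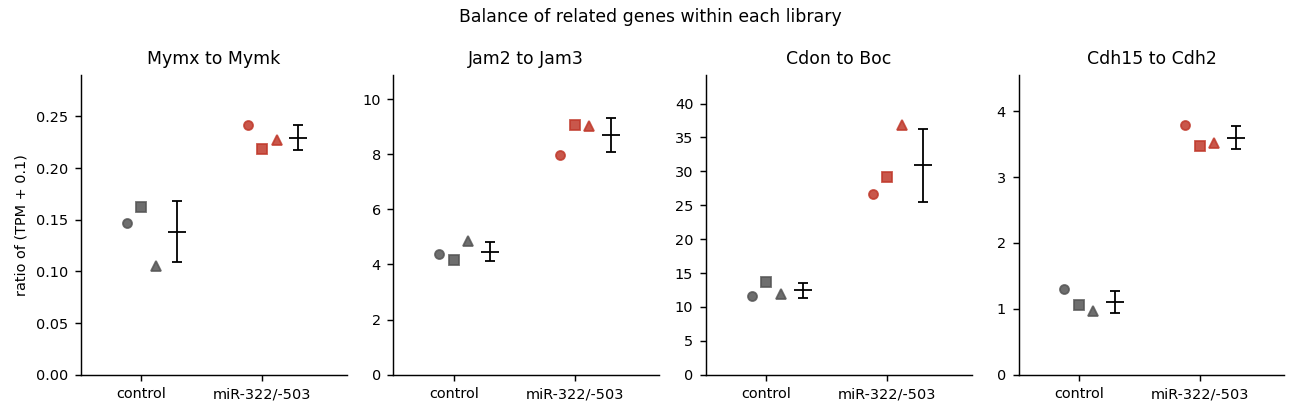
Ratio of TPM + 0.1 between related genes in each of the 3 control (grey) and 3 miR-322/-503 (red) libraries, with circles, squares and triangles for replicates 1, 2 and 3 and the mean ± SD beside the points; each vertical axis starts at 0. In all 4 ratios every miR-322/-503 library lies above every control library, the widest step being that of *Cdh15* to *Cdh2* (3.27-fold).

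*Dock1* encodes a guanine nucleotide exchange factor that activates Rac1 and so couples contact to actin remodeling. *Dock1* (ENSMUSG00000058325, chr7:134670654-135173639, plus strand) was at 52.6, 62.5 and 61.6 CPM in the control libraries and at 53.6, 57.9 and 55.3 CPM in the miR-322/-503 libraries. The groups overlapped, with a log2 fold change of -0.08 (SE 0.08, 95% interval -0.27 to 0.10, edgeR, adjusted p = 0.499).

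*Nphs1* encodes nephrin, an immunoglobulin superfamily protein best known from the filtration slit of kidney podocytes. *Nphs1* (ENSMUSG00000006649, chr7:30458315-30487223, plus strand) was at 33.4, 26.8 and 26.2 CPM in the control libraries and at 29.1, 22.7 and 22.8 CPM in the miR-322/-503 libraries. The groups overlapped, with a log2 fold change of -0.21 (SE 0.14, 95% interval -0.53 to 0.12, edgeR, adjusted p = 0.315).

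The length behind the *Nphs1* counts was that of a transcript that does not encode nephrin. The ratio of a gene's estimated count to its TPM gives the transcript length that the counting used, and for *Nphs1* this length was 1986 to 1987 bases in every library. The annotation (GENCODE M21, GRCm38) holds a transcript of exactly 1987 bases, Nphs1-204, a retained-intron transcript without a coding sequence at chr7:30484915-30486990, near the 3′ end of the gene. The coding transcripts Nphs1-201 and Nphs1-203 are 4608 and 3877 bases long. On the opposite strand the ribosomal protein pseudogene *Rps12-ps4* (chr7:30484701-30485097) shares 183 of its 397 exon bases with *Nphs1* exons, and it had 503 to 804 estimated counts per library (log2 fold change -0.33, edgeR, adjusted p = 0.0906). The values of *Nphs1* are therefore uncertain as a measure of nephrin messenger RNA. Among podocyte markers, *Wt1* was at 0 in every library, *Synpo* was at 71.3 and 59.6 CPM and did not pass the test, and *Podxl* rose from 1.05 to 12.6 CPM (log2 fold change 3.59, edgeR, adjusted p = 2.44e-06).

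In most of the other genes the implied length was close to that of the longest annotated transcript, and it lay farthest below it in *Neo1*. It was 1381 bases for *Mymk* (longest annotated transcript 1382), 3249 for *Cdh15* (3251), 4449 to 4453 for *Boc* (4451) and 1881 to 1926 for *Jam3* (1942). It was 7070 to 7180 for *Cdon* (7503), 4110 to 4181 for *Jam2* (4370), 5548 to 5881 for *Neo1* (7379) and 5966 to 6537 for *Dock1* (6807). *Mymx*, with 4 annotated transcripts between 437 and 804 bases, had an implied length of 630 to 678 bases.

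**Figure D3:**
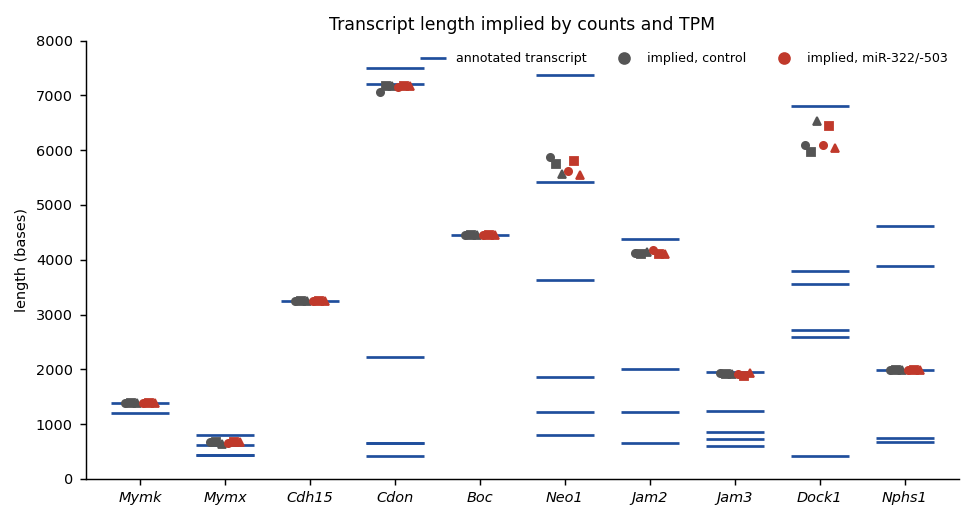
Transcript length in bases implied by the estimated count and TPM of each gene in each library (grey, control; red, miR-322/-503; circles, squares and triangles for replicates 1, 2 and 3), with blue dashes for the lengths of the annotated transcripts. The *Nphs1* points lie on its 1987-base retained-intron transcript and not on the coding transcripts of 4608 and 3877 bases.

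Per length, *Mymk* was the most abundant of the 10 genes in both groups, at 311 ± 65.8 TPM in the control and 231 ± 20.6 TPM in the miR-322/-503 group. In the control it was followed by *Cdh15* (122 ± 13.3 TPM), *Jam2* (109 ± 3.18), *Cdon* (97.7 ± 3.32), *Neo1* (54.9 ± 1.28) and *Mymx* (41.7 ± 1.95), and *Cdh15* and *Jam2* overlapped. Then came *Nphs1* (27.5 ± 4.13 TPM), *Jam3* (24.5 ± 1.43), *Dock1* (18.0 ± 1.61) and *Boc* (7.80 ± 0.607), where *Nphs1* and *Jam3* overlapped. In the miR-322/-503 group the order began with *Mymk*, *Cdh15* (199 ± 11.7 TPM), *Jam2* (138 ± 7.01) and *Cdon* (100 ± 3.63), none of which overlapped with its neighbor. *Mymx* (52.8 ± 2.36 TPM) and *Neo1* (49.4 ± 2.003) overlapped, and *Nphs1* (23.5 ± 4.11), *Dock1* (16.8 ± 0.422), *Jam3* (15.8 ± 0.463) and *Boc* (3.22 ± 0.534) followed without overlap. *Mymk* was 6.16 to 9.48 times as abundant as *Mymx* in the control libraries and 4.13 to 4.58 times in the miR-322/-503 libraries. The *Mymx* transcripts are short (437 to 804 bases), and whether this affects their TPM was not tested.

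*Cdon*, *Neo1* and *Jam3* lie on chromosome 9, where most genes were lower in the miR-322/-503 group. The other 1013 tested genes of that chromosome had a median log2 fold change of -0.27, and 76.3% of them, with *Jam3* left out, were below 0. On the chromosomes of the other 7 genes the median lay between -0.03 and 0.02. With an offset for the median of each chromosome in each library, *Cdon* was called higher (log2 fold change 0.32, edgeR, adjusted p = 0.0102), *Neo1* turned from -0.15 to 0.10 (adjusted p = 0.191), and *Jam3* was still lower (-0.37, adjusted p = 0.0122). The 20 nearest tested genes around *Jam3* had a median of -0.27, those around *Cdon* -0.06 and those around *Neo1* -0.16. The direction of *Neo1* and the call of *Cdon* thus depended on this scaling, and the origin of the chromosome 9 shift was not tested.

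**Figure D4:**
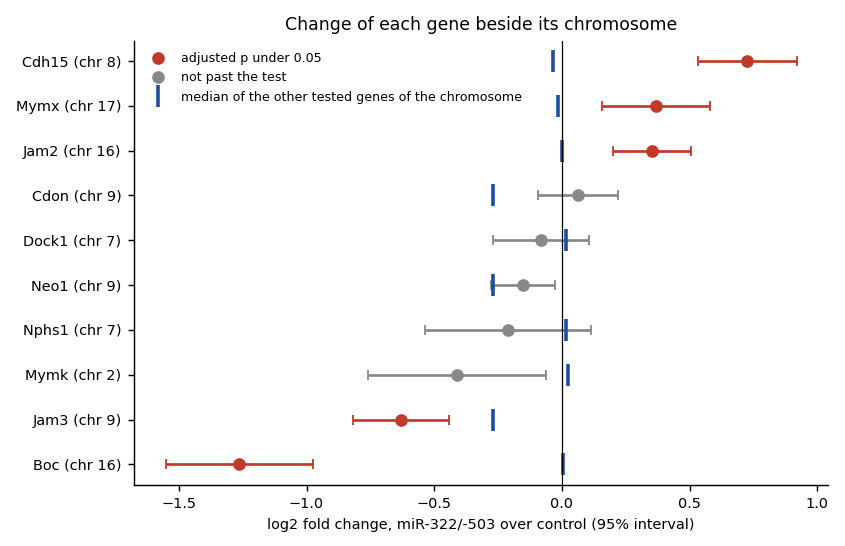
Log2 fold change of each gene (point; red where the adjusted p was under 0.05) with its 95% interval, and the median log2 fold change of the other tested genes of its chromosome (blue bar). *Boc* (-1.26) and *Cdh15* (0.73) lie farthest from their chromosome medians, while *Neo1* (-0.15) and *Cdon* (0.06) lie above the chromosome 9 median of -0.27.

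Promoter windows from 250 bases before to 50 bases after the start were matched in RefSeq (GRCm38.p6) for 5 of the 10 genes, *Cdh15*, *Cdon*, *Neo1*, *Dock1* and *Nphs1*. The starts used for the windows can differ from those of the gene spans above. The windows of *Cdon* (chr9:35451826-35452125), *Nphs1* (chr7:30459808-30460107) and *Cdh15* (chr8:122848124-122848423) lay inside these spans. The E-box CAGCTG, a form favored by myogenic bHLH factors, was in none of these 5 windows and in 16.3% of 32851 windows. The general E-box CANNTG, which includes CAGCTG and reads alike on both strands, occurred 4 times in the *Cdh15* window and 1 time in that of *Dock1*, and 72.3% of all windows hold at least 1.

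The other genes of myoblast adhesion and fusion were described with a list of 79 genes in 7 groups. Of these, 72 were tested, 17 were higher, 19 were lower and 36 did not pass the test, where 13.2% of all tested genes were higher and 15.5% lower. The median log2 fold change of the listed genes was 0.04, beside -0.01 for all genes. With the offset for chromosome medians 19 were higher and 15 lower, so that the balance of directions turned. *Arhgap26* matched more than 1 identifier and was left out. In 44 of the 72 the groups did not overlap, where the share of all tested genes was 45.1%.

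The 27 genes of adhesion and of the Cdon complex held 4 that were higher and 9 that were lower. The integrin subunit gene *Itga4* rose from 0.475 ± 0.0759 to 20.1 ± 1.59 CPM (log2 fold change 5.40, edgeR, adjusted p = 1.19e-06). *Cdh11*, another cadherin gene, rose from 17.8 ± 0.880 to 77.0 ± 7.31 CPM (log2 fold change 2.12), and the netrin gene *Ntn4* rose from 26.1 ± 2.43 to 61.2 ± 6.49 CPM (1.23). Among those that fell were *Adam12*, a metalloprotease gene of fusing myoblasts (130 ± 2.38 to 35.3 ± 2.84 CPM, log2 fold change -1.88), the chemokine gene *Cxcl12* (215 ± 7.49 to 71.8 ± 2.22 CPM, -1.58), *Itga3* (-1.05), *Cdh2* (above) and *Vcam1* (-0.46), the ligand of the integrin that contains the *Itga4* product. *Itga9* had 12 to 20 estimated counts in the control libraries and 0 in all miR-322/-503 libraries. It passed the filter on low counts only through the control group, and it is among the 9 lower genes here and the 19 of the whole list. With at least 10 counts required in every library it was not tested. Against a floor of 12 counts per library it was at least 1.21-fold lower, and its call was lost with the replicate number as a block (edgeR, adjusted p = 0.0595).

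Of the 5 tested junctional and polarity genes, *F11r*, which encodes junctional adhesion molecule A, rose from 13.5 ± 1.34 to 34.2 ± 2.68 CPM (log2 fold change 1.34, edgeR, adjusted p = 9.06e-05), *Tjp1* rose (0.27), and none fell. The call of *Tjp1* was lost in 4 of the 6 fits that left out a library (adjusted p between 0.0504 and 0.0679). Of 4 tested nephrin and Kirrel partners, *Kirrel3* (0.53) and the adaptor gene *Nck2* (0.61) rose, and its relative *Nck1* fell (-0.49). *Nck1* lies on chromosome 9, and its call was lost with the chromosome offset (-0.23, edgeR, adjusted p = 0.182), in both limma fits and without miR-322/-503 replicate 1 or 2 (adjusted p = 0.0562 and 0.0541). Among 14 genes of the Rac, Dock and actin group, *Elmo1*, whose product works with Dock1, rose from 2.15 ± 0.206 to 4.49 ± 0.828 CPM (log2 fold change 1.06, edgeR, adjusted p = 0.00414), *Wipf1* (0.37) and *Trio* (0.28) rose, and *Wasf2* fell (-0.19). *Wipf1* lost its call in 5 of the fits that left out a library (adjusted p up to 0.08), and *Trio* lost its call in 5 such fits, without the filter on low counts and in both limma fits (adjusted p up to 0.142). *Wasf2* lost its call in each of the 6 fits that left out a library, with RLE factors, without the filter on low counts and in both limma fits (adjusted p up to 0.136), and its log2 fold change was -0.01 with the chromosome offset (edgeR, adjusted p = 0.893).

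Of 6 genes of phosphatidylserine recognition, *Anxa1* rose (log2 fold change 0.49), while *Anxa5* (-0.41) and *Cd36* (-1.47) fell. The 9 genes of ferlins and membrane remodeling were split 3 and 3, with *Dysf*, the dysferlin gene, lower (72.4 ± 3.37 to 40.8 ± 1.49 CPM, -0.83) and *Bin1* higher (0.51). Of 7 tested regulators, 2 were higher and 3 lower. *Fst*, which encodes the myostatin antagonist follistatin, fell from 83.2 ± 5.12 to 15.9 ± 0.467 CPM (log2 fold change -2.38, edgeR, adjusted p = 1.31e-06), *Nfatc2* (-2.41) and *Il4ra* (-0.46) fell, and *Il13ra1* (0.93) and *Tgfbr1* (0.29) rose. The call of *Tgfbr1* was lost in both limma fits and in 4 of the 6 fits that left out a library (adjusted p up to 0.11). Of the markers of adipocytes, blood cells and endothelium, all 4 adipocyte markers (*Adipoq*, *Plin1*, *Lep* and *Cidec*), the blood cell markers *Ptprc*, *Adgre1* and *Itgam*, and the endothelial markers *Pecam1*, *Cdh5*, *Kdr* and *Tie1* had at most 12 estimated counts in any library. *Cd68* was at 2.47 CPM in the control and 3.44 CPM in the miR-322/-503 group and did not pass the test, and *Tek* rose from 1.13 to 4.201 CPM (log2 fold change 1.90, edgeR, adjusted p = 0.000342).

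**Figure D5:**
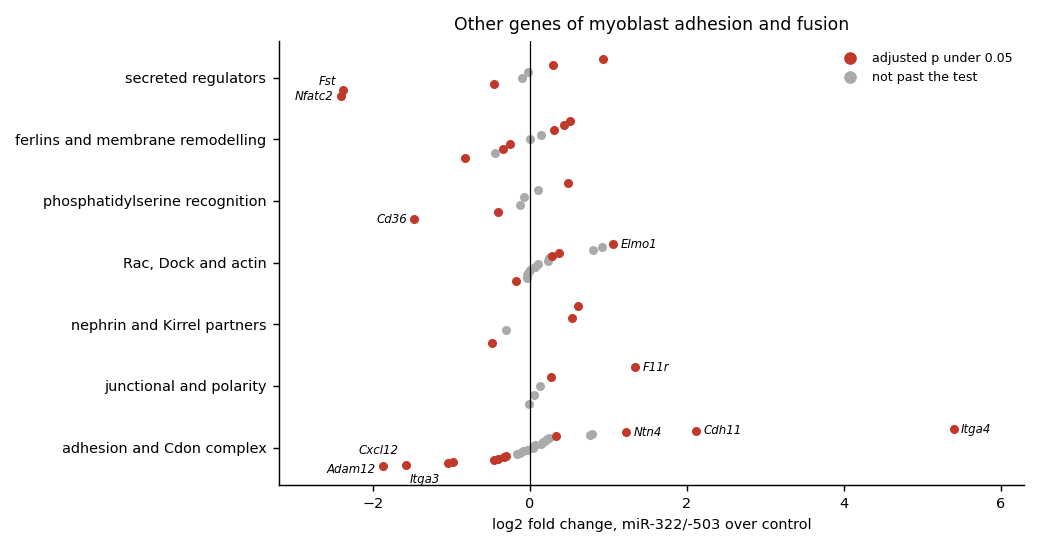
Log2 fold change between the miR-322/-503 and control groups for the 71 tested genes of the fusion list other than *Itga9*, which was at 0 in the miR-322/-503 group, by functional group (red, adjusted p under 0.05; grey, not past the test); genes past an absolute log2 fold change of 1 are named. *Itga4* (5.40) lies farthest to the right and *Nfatc2* (-2.41) and *Fst* (-2.38) farthest to the left.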

How the data were processed

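Per the labels and the paper's methods, the authors used Trim Galore for trimming, HISAT2 for alignment (GRCm38) and StringTie for counting; versions, annotation and strand setting are not given in the sources used here. The deposited table holds estimated counts per gene, not normalized. The authors' table for each library gives TPM and coverage signal per gene; coverage was used only to find how many counts a read pair gave (1 count covered 75.0 bases at the median, while low genes peaked at 300 covered bases). TPM rows of an identifier listed again in a library were summed.

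All counts were tested in edgeR 4.0.16 (R 4.3.3; filterByExpr, TMM, glmQLFit, glmQLFTest) without covariates. The authors used DESeq2 with an absolute log2 fold change above 1 and an adjusted p under 0.05; DESeq2 was run here as an alternative. Ratios used TPM + 0.1 and scipy 1.17.1. The alternatives were DESeq2 1.42.0, RLE factors, other filters, limma 3.58.1 on log2(TPM + 1) and log2(TPM + 0.1), counts per read pair, a replicate block, chromosome offsets and leaving out each library. The scripts were tested on simulated data. Transcripts came from GENCODE M21, which held 55154 of the identifiers.

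The genes, lists and tests were chosen with earlier results of these data known. Named were all 10 genes, the genes of the fusion list that passed with an absolute log2 fold change above 1, otherwise the strongest called genes of each group, and the cell type markers (1 is not reported here); *Wasf2*, *Nck1* and *Tgfbr1* were named after their values were seen. Intervals and floors cover counting error or the spread between libraries only.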

Additional observations from a re-analysis of the deposited data

How the results depend on the processing

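Over single member genes and alternatives, 143 values kept direction and side of the threshold, 4 lost the call (all *Mymx*, each with a library left out), 2 gained one (*Mymk* with DESeq2, *Cdon* with the chromosome offset) and 1 reversed. The reversal was *Neo1* with the chromosome offset, at 0.10 (edgeR, adjusted p = 0.191). The adjusted p of *Mymk* ranged from 0.0209 to 0.219 over its alternatives. With a library left out, 2 to 3 members were higher and 2 lower, and 12 to 17 genes of the fusion list were higher and 15 to 17 lower. The log2 ratios then ranged from 0.57 to 0.88 for *Mymx* to *Mymk*, 0.91 to 1.02 for *Jam2* to *Jam3*, 1.17 to 1.40 for *Cdon* to *Boc* and 1.62 to 1.83 for *Cdh15* to *Cdh2*. The fusion list had 22 genes higher and 19 lower with DESeq2, and 14 and 14 in both limma fits. Low genes shrank on the log2(TPM + 1) scale, *Itga4* to 2.21 and *Nfatc2* to -0.32, against 4.44 and -1.42 on the log2(TPM + 0.1) scale. The added 1 is large beside levels such as the 0.322 TPM (control) and 0.0576 TPM (miR-322/-503) of *Nfatc2*. Same-numbered libraries deviated together with correlations of 0.131, 0.0687 and 0.0451, so the numbers were not taken to pair them. With the replicate block 3 members were higher and 2 lower, 23 genes of the fusion list were higher and 19 lower, and over all genes 2667 were higher and 3066 lower, against 2401 and 2817 without it. In the blocked fit *Itga9* lost its call (edgeR, adjusted p = 0.0595). The mean same-numbered differences of the log2 ratios were 0.75, 0.96, 1.30 and 1.71, and the exact sign-flip test of 3 pairs in a replicate block cannot go below p = 0.25. The members had at least 487 estimated counts in every library (about 4 counts a read pair), and what depth adds to their error was not tested; *Itga9* lay near the floor.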

Other observations

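Of the fusion list, 6 genes whose control mean was 10 CPM or more varied within both groups by an SD above 1/3 of the mean, and *Kirrel* and *Rac1* are given here because of their ties to nephrin and Dock1; they were chosen after their values were seen. *Kirrel*, which encodes a binding partner of nephrin, was at 228, 55.9 and 50.8 CPM in control replicates 1 to 3 and at 176, 48.2 and 46.3 CPM in miR-322/-503 replicates 1 to 3. *Rac1*, the GTPase that Dock1 activates, was at 217, 68.0 and 66.7 CPM in the control libraries and at 267, 86.2 and 311 CPM in the miR-322/-503 libraries. The implied transcript length of *Rac1* also differed between libraries, at 2989, 4126 and 4090 bases (control) and 3232, 2992 and 2879 bases (miR-322/-503). That of *Kirrel* lay between 6063 and 7181 bases. Whether the spread of the levels follows from the assignment of reads to transcripts was not tested. The groups overlapped in both genes, and neither passed the test (edgeR, adjusted p = 0.802 and 0.301). None of the 10 members varied in this way, the widest being *Mymk* in the control at 226 ± 49.0 CPM.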
